A study of Homo sapiens with 4 samples.

Results

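The genes described here are 10 that low oxygen is known to induce and that are not enzymes of glycolysis: VEGFA, P4HA1, P4HA2, BNIP3, BNIP3L, EGLN1, EGLN3, KDM3A, NDRG1 and ANKRD37. They were taken by gene name from a deposited table of 28482 genes, and each name had 1 row. RNA was sequenced in 4 libraries of K562/G01, an imatinib-resistant derivative of the K562 line. K562 was established from chronic myeloid leukemia, and the BCR-ABL1 kinase it makes is the target of imatinib. All 4 cultures were infected with lentivirus, which carried either a scramble control or an RNA interference construct against the Wnt-pathway transcription factor TCF7. Imatinib was then either withheld or present at 1 µM over 48 hours, and the groups are scramble, TCF7 knockdown, scramble with imatinib and TCF7 knockdown with imatinib, with 1 library each. The labels name no change in oxygen supply, and separate infections of the treated and untreated cultures are not stated. With 1 culture a group, an effect of the hairpin and any other difference between cultures cannot be told apart, nor can fewer cells of a type and less RNA per cell in bulk RNA.

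The response to low oxygen runs through hypoxia-inducible factor (HIF), a pair of an oxygen-regulated alpha subunit, HIF1A or EPAS1, and the constant partner ARNT. When oxygen is present, the prolyl hydroxylases of the EGLN family mark the alpha subunit, and the ubiquitin ligase that contains VHL has it degraded. When oxygen falls, the pair binds a short core motif near its target genes. Outside glycolysis, its targets shape blood vessel growth, collagen modification, removal of mitochondria, histone demethylation and the oxygen sensors themselves. In erythroid cells, to which K562 is related, removal of mitochondria through BNIP3L is also a step of red cell maturation.

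The HIF core motif was searched as ACGTG and as GCGTG, on both strands (CACGT and CACGC), in the 250 bases upstream of each start site in the RefSeq promoter table (build GRCh38.p14). Of the 10 genes, 7 had an entry: P4HA1, P4HA2, BNIP3, EGLN1, EGLN3, KDM3A and ANKRD37. One or the other motif was in 5 of these 7, and ACGTG in 4 of 7. Of all 35116 promoters in the table, 43.2% held either motif in the same window, 18.5% ACGTG and 32.2% GCGTG. The stretches around the matches are shown because they are the letters that HIF is known to read, with matches in capitals and each sequence 5′ to 3′ on the strand of its gene. Where an exon of any transcript in GENCODE overlaps the matches, only 30 bases are given.
ANKRD37 (chr4:185396676-185396705, plus strand): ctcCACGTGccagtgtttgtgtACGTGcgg
BNIP3 (chr10:131982015-131982074, minus strand): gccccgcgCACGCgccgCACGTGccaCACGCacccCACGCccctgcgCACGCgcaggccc
EGLN1 (chr1:231422288-231422317, minus strand): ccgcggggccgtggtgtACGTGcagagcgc
P4HA1 (chr10:73096935-73096964, minus strand): tgtgatcgagctCACGTagcgagggctgca
KDM3A (chr2:86441333-86441362, plus strand): ccgggaggctgtGCGTGtcttgtgagagct
In CACGTG the matches of the 2 strands overlap. Counting both strands, BNIP3 had 2 matches to ACGTG and 4 to GCGTG, ANKRD37 3 to ACGTG, and EGLN1 and P4HA1 1 each. KDM3A, which has 2 start sites in the table with overlapping windows, had 1 match to GCGTG. EGLN3 and P4HA2 had 0 matches in these 250 bases. A match is a description of the letters, and no binding was measured.

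The deposited counts summed to between 30634832 and 34095585 per library. Values below are CPM (counts scaled to a common library size) normalised by TMM, which corrects for differences in composition between libraries, and a ratio is the log2 ratio of these values between 2 libraries with its 95% counting interval. With 1 library per group a ratio has no replicate check. Knockdown was tested as 2 libraries against 2 in an additive edgeR fit with imatinib as the other factor, and imatinib likewise, with adjustment over 13296 tested genes. That fit leaves 1 residual degree of freedom, the gap between the knockdown ratios without and under imatinib. The variance of each gene is therefore drawn mostly from all tested genes (33.8 prior degrees of freedom). Its p-values cover only these libraries and do not measure the spread between replicate cultures. "Rose" and "fell" mark genes called by it at an adjusted p under 0.05. TCF7 itself had 10.2 and 10.7 CPM in the scramble libraries without and with imatinib, and 2.56 and 3.70 CPM in the matching knockdown libraries. It fell with knockdown (edgeR adjusted p = 1.51e-07). Of 10 erythroid genes fixed as markers of K562, all 10 were measured at 41.8 CPM or more in every library. Of 13 measured markers of T cells, B cells, fibroblasts, endothelium, epithelium and monocytes, 8 had at most 9 counts in any library. The other 5 were CD3D, CD3G, EPCAM, KRT19 and COL1A1. The summed level of the 13 lay between 191 and 222 CPM. COL1A1, the collagen chain of fibroblasts, rose with knockdown from 5 and 7 counts to 42 and 32, and its part in the results below was not tested. COL1A1 passed the filter for testing only through the knockdown libraries, where it was high, so its call leans on the values that admitted it.

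All 10 hypoxia response genes were tested, and all had more than 1 CPM in every library. With TCF7 knockdown 8 of the 10 fell: VEGFA, P4HA1, P4HA2, BNIP3, EGLN1, EGLN3, KDM3A and NDRG1. ANKRD37 and BNIP3L were not called, and 0 rose. Of all 13296 genes tested 3.34% were called lower with knockdown and 3.8% higher. The median log2 ratio of the 10 was -0.56 without imatinib and -0.78 under imatinib, against 0.00 and 0.02 over all genes tested. The knockdown ratio was below 0 both without and under imatinib in 9 of 10, as in 29.5% of all genes. In 8 of 10, both knockdown libraries lay below both scramble libraries, and BNIP3L and KDM3A were the exceptions. The same was true of 15.8% of all genes tested. Past a 2-fold reduction were 1 of the 10 without imatinib (NDRG1) and 3 under imatinib (VEGFA, P4HA1 and NDRG1), against 1.75% and 1.51% of all genes. DESeq2 called 5 of the 10 and limma on the deposited FPKM values 4, in each case all lower, where they called 144 and 107 genes lower in all. Without imatinib as a factor edgeR called 0 of the 10 and 0 of all genes, and 8 of the 10 had an unadjusted p under 0.05. The share of all genes with such a p in that fit is not given. With each library left out in turn and no such factor, 1 to 6 of the 10 were called. Without the scramble library 1 of 19 genes called lower in all was among the 10, without the knockdown library 6 of 235, without scramble with imatinib 3 of 27 and without knockdown with imatinib 2 of 147. The genes were chosen with earlier results of these data known, so these counts are a description of the set.

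**Figure D1:**
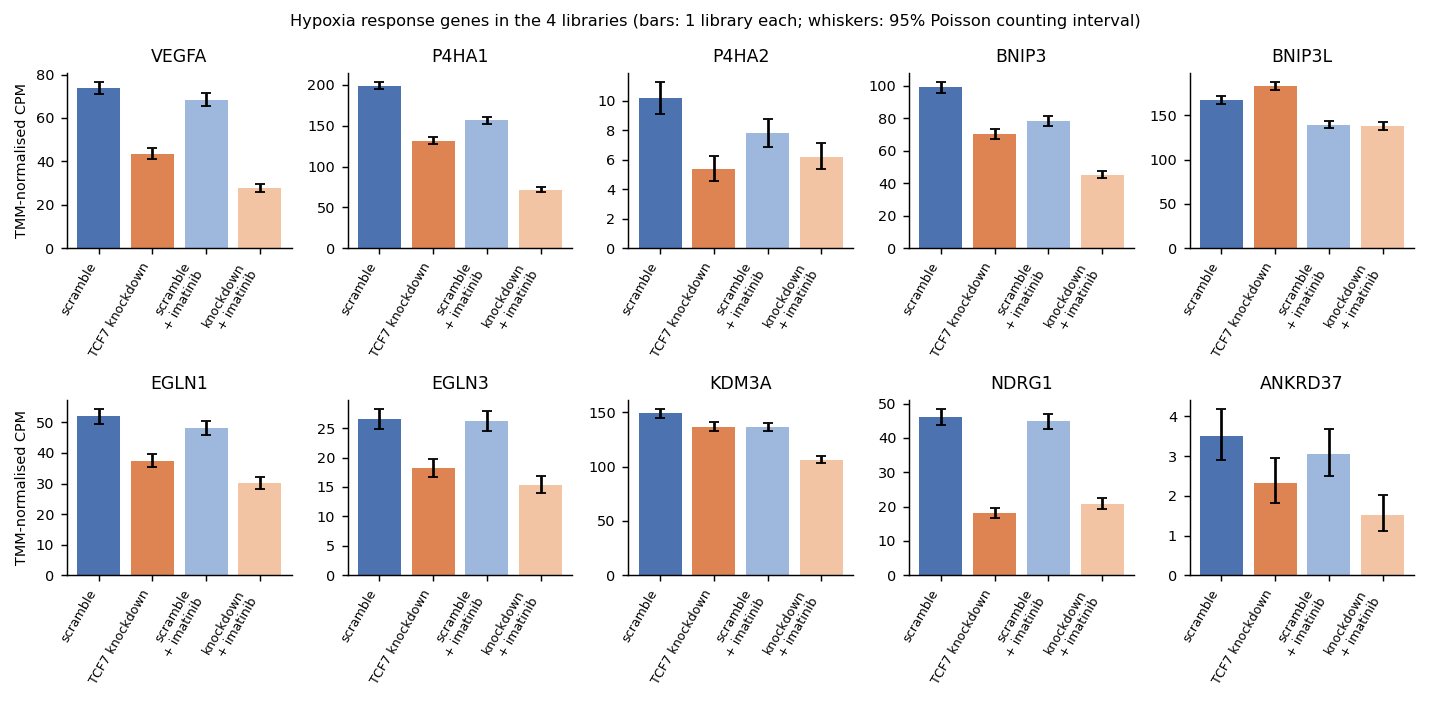
TMM-normalised CPM (vertical axis, from 0) of the 10 genes, with 1 bar for each of the 4 libraries; whiskers are 95% Poisson intervals and cover counting error only. The scramble library is highest for 9 of the 10 genes (23.6% of all genes tested), and the knockdown library with imatinib lowest for 8 (30.3%).

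VEGFA encodes the growth factor that drives endothelial growth (chromosome 6, 43770184 to 43786487). It had 73.8 CPM in scramble, 43.6 in knockdown, 68.5 in scramble with imatinib and 27.7 in knockdown with imatinib. Both scramble values were close to each other with overlapping counting intervals, and the knockdown values were lower, most of all under imatinib. The imatinib ratio in scramble cells was -0.11 (-0.19 to -0.03). The knockdown ratio was -0.76 (-0.86 to -0.66) without imatinib and -1.31 (-1.42 to -1.20) under imatinib, so that 59.1% and 40.5% of the scramble level was left. VEGFA fell in the fit (log2 fold change -1.03, SE 0.102, edgeR adjusted p = 5.03e-09). Its relative VEGFB, which is not usually counted as induced by hypoxia, had ratios of -0.11 and 0.09 and was not called (edgeR adjusted p = 0.983). The relatives of the 10 genes that are named here, other than EGLN2, and UFSP2 below were singled out after their values were seen. The other ligands VEGFC, VEGFD and PGF had at most 10 counts in any library. Receptors and co-receptors of VEGF (FLT1, KDR, FLT4, NRP1 and NRP2) had at most 20 counts, and none of these 5 passed the filter for testing.

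P4HA1 and P4HA2 encode alternative catalytic subunits of collagen prolyl 4-hydroxylase, the enzyme that makes the collagen helix stable. P4HA1 (chromosome 10, 73007217 to 73096974) had 199 CPM in scramble, 132 in knockdown, 156 in scramble with imatinib and 71.7 in knockdown with imatinib. Each library was apart from the next beyond its counting interval. The knockdown ratio was -0.60 (-0.66 to -0.54) without and -1.12 (-1.20 to -1.05) under imatinib, and P4HA1 fell (log2 fold change -0.86, SE 0.0865, edgeR adjusted p = 7.04e-09). DESeq2 did not call it (adjusted p = 0.0581).

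P4HA2 (chromosome 5, 132191838 to 132295315) was much lower, at 10.2, 5.39, 7.81 and 6.20 CPM in the same order of libraries. The scramble library stood above the rest, and the other three overlapped at neighbouring values. Its ratios went the other way in size, with -0.91 (-1.20 to -0.64) without imatinib and -0.33 (-0.61 to -0.06) under it. It fell at the edge of the threshold (log2 fold change -0.62, SE 0.193, edgeR adjusted p = 0.0403), and neither DESeq2 (0.472) nor limma (0.259) called it. Per length, the deposited FPKM values were 64.4, 42.3, 51.1 and 23.1 for P4HA1 and 1.20, 0.63, 0.93 and 0.73 for P4HA2, so nearly all of this pair's transcripts were those of P4HA1. P4HB, the subunit that both partner with and a protein disulfide isomerase in its own right, had 63.9, 65.6, 71.0 and 71.6 on the same scale. Its knockdown ratios were 0.05 and 0.03, and it was not called (edgeR adjusted p = 0.824).

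BNIP3 and BNIP3L (also called NIX) encode related receptors on the outer mitochondrial membrane that hand mitochondria to autophagy. These relatives differed. BNIP3 (chromosome 10, 131966455 to 131982013) had 99.2 CPM in scramble, 70.5 in knockdown, 78.3 in scramble with imatinib and 45.3 in knockdown with imatinib. All 4 libraries were apart beyond their counting intervals. Its knockdown ratios were -0.49 (-0.57 to -0.41) and -0.79 (-0.88 to -0.70), and it fell (log2 fold change -0.64, SE 0.0855, edgeR adjusted p = 1.87e-06). Processed copies of BNIP3 could share reads with it, and those with a row in the table (BNIP3P1, BNIP3P4, BNIP3P5 and BNIP3P41) had at most 28 counts each.

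BNIP3L (chromosome 8, 26382898 to 26505636) had 168, 183, 139 and 138 CPM in the same order. Knockdown and scramble did not part in one direction, since the knockdown library was highest without imatinib and level with scramble under it. The knockdown ratios were 0.13 (0.07 to 0.18) and -0.01 (-0.07 to 0.05), and BNIP3L was not called (log2 fold change 0.06, SE 0.073, edgeR adjusted p = 0.742). Of 12 other tested genes of mitophagy and its adaptors, 1 fell, 1 rose and 10 were not called, with a median log2 fold change of 0.06. The gene that rose was FUNDC1, another mitochondrial receptor that low oxygen regulates (0.53 and 0.38), and the one that fell was SQSTM1, an autophagy adaptor (-0.52 and -0.01).

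**Figure D2:**
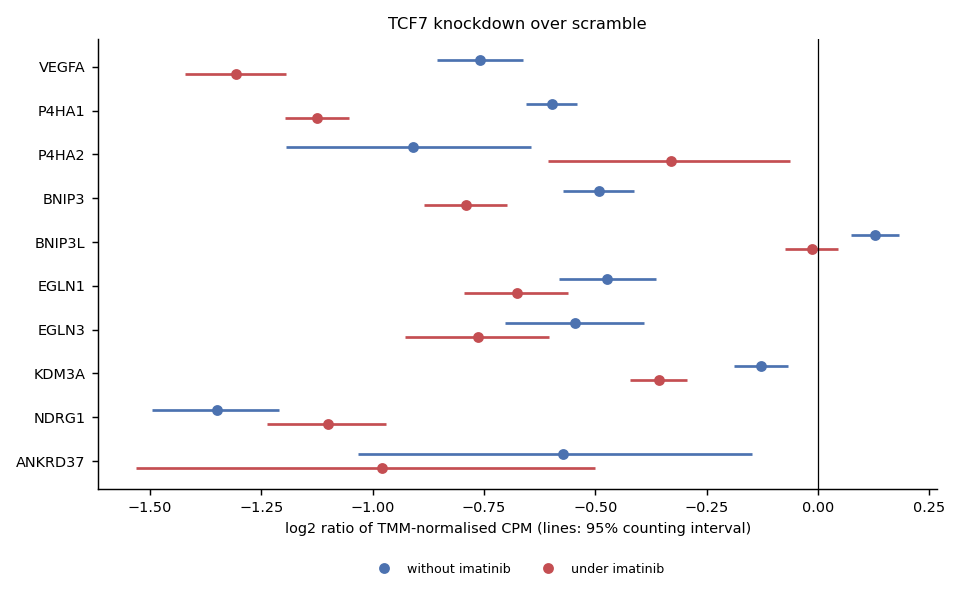
Log2 ratio of knockdown over scramble (horizontal axis) of the 10 genes, without imatinib (blue) and under imatinib (red), with 95% counting intervals as lines. In 9 genes both intervals lie below 0, and BNIP3L lies at 0.13 and -0.01. The share of all genes with both intervals below 0 is not given.

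EGLN1 and EGLN3 encode the oxygen-sensing prolyl hydroxylases PHD2 and PHD3, which mark HIF alpha for degradation and are themselves induced when HIF is active. EGLN1 (chromosome 1, 231363751 to 231425044) had 52.0 CPM in scramble, 37.5 in knockdown, 48.2 in scramble with imatinib and 30.1 in knockdown with imatinib. EGLN3 (chromosome 14, 33924231 to 34462774) had 26.5, 18.2, 26.2 and 15.4 CPM in that order. In both genes the scramble libraries with and without imatinib had overlapping counting intervals and lay above both knockdown libraries. For EGLN1 the imatinib ratio in scramble cells was -0.11 (-0.21 to -0.01). The knockdown ratios of EGLN1 were -0.47 (-0.58 to -0.36) and -0.68 (-0.79 to -0.56), and it fell (log2 fold change -0.57, SE 0.0973, edgeR adjusted p = 9.74e-05). Those of EGLN3 were -0.54 (-0.70 to -0.39) and -0.76 (-0.93 to -0.60), and it fell by a like amount (log2 fold change -0.65, SE 0.122, edgeR adjusted p = 0.000351). Limma called neither of these hydroxylase genes, with adjusted p = 0.0629 and 0.0863. The deposited FPKM values were 4.13 to 7.16 for EGLN1 and 2.08 to 3.60 for EGLN3. They divide by all annotated exon bases, 7265 for EGLN1 and 7359 for EGLN3. The longest transcripts have 7097 and 2849 bases, so which of these genes had more transcripts is uncertain. EGLN2, the relative that is not usually counted as induced by hypoxia, had FPKM values of 1.28 to 1.85. Its knockdown ratios were -0.03 and 0.54, and it was not called (edgeR adjusted p = 0.439).

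KDM3A encodes a histone demethylase that needs oxygen and removes methyl groups from lysine 9 of histone H3 (chromosome 2, 86440647 to 86492716). It had 149 CPM in scramble, 137 in knockdown, 137 in scramble with imatinib and 107 in knockdown with imatinib. The knockdown library and the scramble library with imatinib were level, and the knockdown library with imatinib stood below the other three. With ratios of -0.13 (-0.19 to -0.07) and -0.36 (-0.42 to -0.29), KDM3A had the smallest change of the genes that fell (log2 fold change -0.24, SE 0.0759, edgeR adjusted p = 0.044). That call was lost in DESeq2 (0.33), in limma (0.253) and without the expression filter (0.0864). The relatives KDM3B (0.04 and 0.04) and JMJD1C (-0.06 and -0.05) were not called.

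NDRG1 encodes a cytoplasmic protein induced by hypoxia and by other stresses, and it is often lowered in growing cells (chromosome 8, 133237171 to 133302022). It had 46.2 CPM in scramble, 18.1 in knockdown, 44.8 in scramble with imatinib and 20.9 in knockdown with imatinib. The libraries lay at 2 levels by hairpin, with overlapping counting intervals within each. The knockdown libraries still differed somewhat, with an imatinib ratio of 0.20 (0.04 to 0.37). The knockdown ratio was -1.35 (-1.50 to -1.21) without imatinib and -1.10 (-1.24 to -0.97) under imatinib. In the fit NDRG1 had the largest knockdown change of the 10 (log2 fold change -1.23, SE 0.107, edgeR adjusted p = 2.25e-10), and it ranked 92 from the lowest among 13296 genes. Under imatinib alone, VEGFA (-1.31) and P4HA1 (-1.12) had lower knockdown ratios. The deposited FPKM values were 4.70, 1.83, 4.61 and 2.12 for NDRG1, against 10.5 to 13.9 for NDRG3 and 2.56 to 3.30 for NDRG2. Those of NDRG1 divide by 9823 annotated exon bases, while its longest transcript has 3983. How these relatives compare in number of transcripts is therefore uncertain. NDRG2 (-0.19 and -0.26) and NDRG3 (-0.23 and -0.13) were not called. In all, 0 of the 9 tested relatives of the 10 genes were called by edgeR for knockdown, and 0 of these 9 had an unadjusted p under 0.05. Of all 13296 genes tested 2577 had such a p, and 9 genes are few to set against that share. The median log2 fold change of the 9 relatives was 0.02.

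ANKRD37 encodes a small ankyrin repeat protein (chromosome 4, 185396021 to 185400628) and had the lowest counts of the set, 116, 71, 105 and 48, or 3.50, 2.33, 3.05 and 1.52 CPM, for scramble, knockdown, and then each with imatinib. From highest to lowest, neighbouring libraries had overlapping counting intervals. Its ratios of -0.57 (-1.03 to -0.15) and -0.98 (-1.53 to -0.50) were as large as those of genes that were called, but at this depth it was not called (log2 fold change -0.79, SE 0.313, edgeR adjusted p = 0.136). It shares 35.2% of its exon length with UFSP2 on the opposite strand. The strand setting of the counting is not given in the sources used here, so its value is uncertain. UFSP2 had 942, 923, 842 and 756 counts in the same order of libraries. Of the other genes, only P4HA2 (6.45%) and BNIP3L (7.66%) shared more than 2% of their exon length with any other gene.

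The genes that lie beside the 10 on their chromosomes were taken next. For each gene the 5 nearest genes on either side with a mean of 5 CPM or more were taken (8 in all for ANKRD37). Their median knockdown ratio lay between -0.04 and 0.02 without imatinib and between -0.20 and 0.06 under imatinib. Single neighbours ranged more widely, from -1.81 beside P4HA1 (DDIT4, itself a gene induced by hypoxia) and -1.50 beside EGLN1 to 1.77 beside BNIP3L. Within the EGLN3 gene on the same strand lies SPTSSA, with 0 shared exon bases and named after its values were seen. It had 1503 counts in scramble, 957 in knockdown, 1263 in scramble with imatinib and 849 in knockdown with imatinib, so it was lower in both knockdown libraries, as EGLN3 was. Its lower ratio was -0.53.

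The machinery that controls HIF was measured next. Of 12 tested genes for HIF subunits, hydroxylases, the VHL ligase and coactivators, 0 fell, 1 rose and 11 were not called, and the median log2 fold change was 0.05. HIF1A had 1922, 1738, 1657 and 1834 counts (scramble, knockdown, and then each with imatinib), with knockdown ratios of -0.02 and 0.27, and was not called (edgeR adjusted p = 0.514). EPAS1, which encodes HIF-2 alpha, was the gene that rose, with 887, 994, 1098 and 1542 counts in that order and ratios of 0.29 and 0.61 (edgeR adjusted p = 0.00415). ARNT (-0.08 and -0.005), VHL (-0.10 and -0.09) and HIF1AN, the asparagine hydroxylase that restrains HIF (0.10 and 0.12), were not called. These are transcript levels, and HIF alpha is controlled mainly as a protein, which was not measured.

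Other genes known to be induced by hypoxia were mixed. Of 24 tested outside glycolysis, 5 fell, 3 rose and 16 were not called, with a median log2 fold change of -0.14. Those that fell were PPFIA4, a liprin (-1.68 and -2.96), DDIT4, which restrains mTOR (-0.77 and -1.81), STC2, a secreted glycoprotein (-0.95 and -1.23), FUT11, a fucosyltransferase family member (-0.56 and -0.30), and PLOD1, a lysyl hydroxylase of collagen (-0.35 and -0.48). Those that rose were CA12, a membrane carbonic anhydrase (1.16 and 1.22), CCNG2, an unusual cyclin of resting cells (0.91 and 0.49), and CITED2, which competes with HIF for its coactivators (0.27 and 0.26). Among genes below the expression filter, singled out after their values were seen, CA9, a carbonic anhydrase widely used as a marker of hypoxia, had 29 and 25 counts in the scramble libraries without and with imatinib, and 2 and 0 in the knockdown libraries. MIR210HG, the host transcript of a hypoxia-induced microRNA, had 34 and 27 in the scramble libraries and 7 and 3 in the knockdown libraries. For CA9 the library with 0 counts has an upper 95% Poisson bound of 0.117 CPM. Of 35 such genes outside glycolysis with deposited counts, 24 were tested. The other untested ones are not described here, and CA9 and MIR210HG do not stand for them.

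The enzymes and transporters of glycolysis also had lower medians. Of 22 tested, 9 fell, 0 rose and 13 were not called, with a median log2 fold change of -0.26, against -0.65 for the 10 genes outside glycolysis and 0.01 over all genes tested. PDK1, a kinase that restrains pyruvate dehydrogenase and is not itself an enzyme of glycolysis, had ratios of -0.61 and -0.74. GPI (-0.29 and -0.40), ALDOA (-0.29 and -0.35), PGK1 (-0.13 and -0.44), SLC2A1, a glucose transporter (-0.39 and -0.17), and HK2 (-0.17 and -0.36) fell by less.

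**Figure D3:**
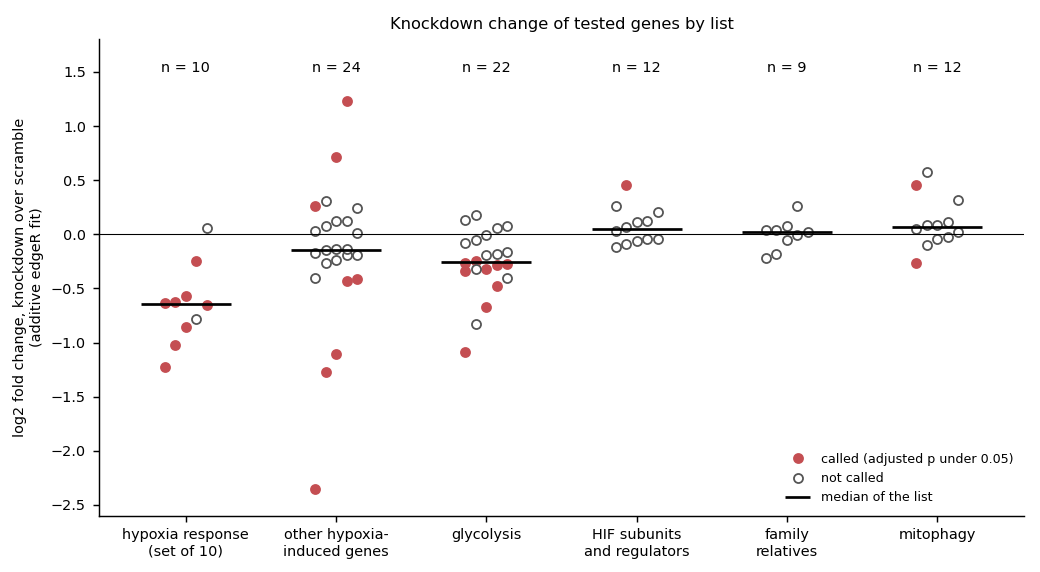
Log2 fold change of knockdown over scramble in the additive edgeR fit (vertical axis) for each tested gene of 6 lists, filled where called at an adjusted p under 0.05, with a bar at the list's median. The set of 10 has a median of -0.65, other hypoxia-induced genes -0.14, glycolysis -0.26, and HIF subunits and regulators 0.05; EGLN2 stands in 2 lists.

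With imatinib, over both knockdown states, 5 of the 10 fell, 0 rose and 5 were not called: VEGFA (log2 fold change -0.37), P4HA1 (-0.60), BNIP3 (-0.49), BNIP3L (-0.34) and KDM3A (-0.24). Of all genes tested 7.08% were called lower with imatinib and 13.8% higher. DESeq2 called 2 of the 10 lower (BNIP3 and BNIP3L) and 241 of all genes, and limma 3 (P4HA1, BNIP3 and BNIP3L) and 177. VEGFA (adjusted p = 0.0788 in DESeq2 and 0.193 in limma) and KDM3A were called by neither, and P4HA1 was not called by DESeq2 (0.113). Without knockdown as a factor edgeR called 0 of the 10 and 0 of all genes, with 1 of the 10 at an unadjusted p under 0.05. The share of all genes with such a p is not given for it. With each library left out in turn, 1 imatinib state held 1 library. The change of VEGFA was then 0.14 without scramble and 0.22 without knockdown with imatinib. The 10 had a median ratio of -0.16 with the scramble hairpin and -0.38 with the knockdown, against -0.01 and 0.01 over all genes tested. BNIP3L and KDM3A were the genes whose imatinib libraries both lay below both libraries without the drug, KDM3A by less than its counting interval. So did those of 26.4% of all genes tested. 

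The ratio of imatinib over no imatinib went with GC content across genes in these libraries, with a Spearman correlation across 10095 genes of 0.68 in scramble and 0.75 in knockdown cells. For the ratio of knockdown over scramble it was -0.11 without the drug and 0.37 with it. Its part in the results was not tested beyond the fits with offsets that follow. The longest transcripts of the 10 genes had a GC content between 38.9% and 54.6%. With smooth curves of GC content and gene length fitted in each library and entered as offsets, 3 of the 10 were called lower with imatinib, VEGFA (edgeR adjusted p = 2.05e-06), P4HA1 (5.45e-08) and BNIP3 (1.24e-09), where 2.11% of all genes were. BNIP3L (0.0589) and KDM3A (0.322) were not. The same offsets left 8 of the 10 called lower with knockdown, where 6.11% of all genes were.

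**Figure D4:**
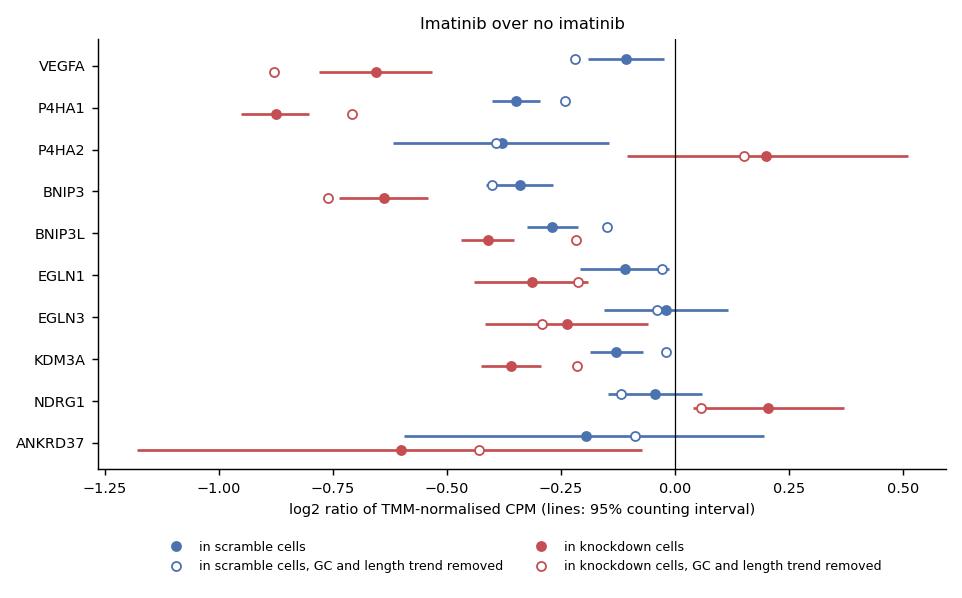
Log2 ratio of imatinib over no imatinib (horizontal axis) of the 10 genes in scramble cells (blue) and knockdown cells (red); lines are 95% counting intervals and open circles the ratio with the GC and length trend removed. VEGFA, P4HA1 and BNIP3 lie at -0.66, -0.88 and -0.64 in knockdown cells, while P4HA2 and NDRG1 lie above 0 there.

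The genes called with the trend in the fit had their larger imatinib ratios in knockdown cells. VEGFA had -0.11 (-0.19 to -0.03) in scramble and -0.66 (-0.78 to -0.53) in knockdown cells. P4HA1 had -0.35 (-0.40 to -0.30) and -0.88 (-0.95 to -0.80), and BNIP3 -0.34 (-0.42 to -0.27) and -0.64 (-0.74 to -0.54). In each, the library with both knockdown and imatinib was the lowest of the 4.

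The difference between the knockdown ratio under imatinib and that without was negative in 8 of the 10 genes, with a median of -0.22, where 47.5% of all genes tested had a negative difference and their median was 0.02. Its counting interval lay below 0 in 6 genes, above 0 in 2 and across 0 in 2. The share of all genes with such intervals is not given, so these counts only describe the 10. VEGFA had -0.55 (-0.70 to -0.40), P4HA1 -0.53 (-0.62 to -0.44) and BNIP3 -0.30 (-0.42 to -0.18). KDM3A (-0.23), EGLN1 (-0.20) and BNIP3L (-0.14) had smaller negative differences. P4HA2 had 0.58 (0.20 to 0.96) and NDRG1 0.25 (0.06 to 0.44). EGLN3 (-0.22) and ANKRD37 (-0.40) had intervals across 0. The difference has no residual degree of freedom and was not tested, and a fault of 1 library would enter it in full. The knockdown library with imatinib was the lowest of the 4 for 8 of the 10 genes and for 30.3% of all genes tested, and the highest for 0 of the 10 and for 34.2% of all genes.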

How the data were processed

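The 4 libraries were rRNA-depleted and made with a directional kit, per the labels' protocols. The submitters' processing notes list GRCh38, HISAT2, FastQC and HTSeq 0.6.1. The annotation and its strand setting were not given in the sources used here. Read counts per gene, as the authors deposited them, were analysed unchanged. Their FPKM values, also deposited, are handled as a score since 6 genes have values below 0. For the 10 genes they equal CPM without TMM per kilobase of GENCODE 29 exon, since the length they imply is the exon length to the base.

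Genes with 1 CPM or more in at least 2 libraries were tested (13296) with edgeR 4.0.16 in R 4.3.3, TMM factors, an additive quasi-likelihood fit and Benjamini-Hochberg adjustment. Ratios used a prior count of 2, with exact binomial 95% intervals, and levels exact Poisson ones. Both kinds reflect counting error alone, and they can be too narrow even for that because PCR copies are not independent. The interval of a difference of ratios is a normal approximation from the counts. The fit was tested on simulated data. Alternatives were other scalings and filters, DESeq2 1.42.0, limma 3.58.1 on log2 of FPKM plus 0.1, GC and length trends (mgcv 1.9.3), thinned counts, fits lacking the other factor and leaving out each library. Genes named are the 10, TCF7, 6 HIF genes, P4HB, list genes called for knockdown (at most 8 a list) and those marked. The members and lists were chosen with earlier results of these data known.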

Additional observations from a re-analysis of the deposited data

Results flagged for a closer look

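The ratios of 3 genes were of opposite sign in the 2 states of the other factor, with 1 library on each side, so the difference was not tested. The imatinib ratio of P4HA2 was -0.38 in scramble and 0.20 in knockdown cells, a difference of 0.58, and that of NDRG1 was -0.04 and 0.20, a difference of 0.25. The knockdown ratio of BNIP3L was 0.13 without and -0.01 under imatinib, a difference of -0.14. In each gene 1 of the 2 ratios had a counting interval across 0, so its sign is uncertain. These were P4HA2 in knockdown cells (-0.10 to 0.51), NDRG1 in scramble cells (-0.15 to 0.06) and BNIP3L under imatinib (-0.07 to 0.05). With the GC and length trend removed, the ratios of BNIP3L were 0.10 and 0.03, of the same sign.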

How the results depend on the processing

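For knockdown, 8 of the 10 genes were called lower; DESeq2 called 5, limma on deposited FPKM values 4, and the edgeR fit without imatinib as a factor 0 (8 at an unadjusted p under 0.05). In that last form, leaving out each library gave 1 to 6 (1 without scramble, 3 without scramble with imatinib, 2 without knockdown with imatinib). For imatinib, 5 were called lower. DESeq2 called 2, limma 3, the GC and length offsets 3, and the fit without knockdown as a factor 0 (1 at an unadjusted p under 0.05). With 3 libraries the groups are unbalanced for the other factor, and directions then turned. The knockdown change of BNIP3L ran from -0.15 to 0.26. The imatinib change ran from -1.09 to 0.22 for VEGFA, -0.63 to 0.86 for NDRG1, -0.54 to 0.38 for P4HA2, -0.57 to 0.11 for EGLN1, -0.54 to 0.23 for EGLN3 and -0.94 to 0.062 for ANKRD37. With the GC and length offsets that of NDRG1 was -0.041 against 0.07, and with the trend removed the median imatinib ratio in knockdown cells was -0.25 against -0.38; the cause was not tested. Over all genes, 444 were called lower and 505 higher with knockdown, against 144 and 128 by DESeq2, 107 and 88 by limma and 813 and 749 with the offsets. With imatinib 941 were lower and 1839 higher, against 241 and 762, 177 and 917, and 281 and 271. Scalings and filters left both counts within 1.5 times of the values given. The prior count and thinning were tried on the ratios alone. No paired analysis was possible because the labels give no replicate numbers; the additive fit already compares the hairpins within each drug state.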
